A study of Homo sapiens with 8 samples.

Results

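H1975-specific open regions are stretches of accessible chromatin that were found in untreated H1975 cells and not in untreated HCC44 cells. They were followed here through treatment with ACBI1. H1975 and HCC44 are established human lung cancer lines. The assay was ATAC-seq: a transposase cuts accessible DNA and leaves sequencing adapters at the cuts, so that reads pile up where chromatin is open. There were 8 samples in 4 groups of 2 replicates: H1975 with DMSO (the solvent), H1975 with ACBI1, HCC44 with DMSO and HCC44 with ACBI1. Treatment lasted 96 h, the ACBI1 dose in the labels is 1 mM, and all 8 samples carry the genotype label WT with no gene named. The labels do not say whether replicates came from separate cultures, so the spread between them may be technical.

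Overlapping peaks of the 8 lists (by at least 1 bp, chromosomes 1 to 22 and X) were merged into 69078 regions. The H1975-specific regions were chosen by peak calls in the DMSO lists: a peak in both H1975 DMSO lists and in neither HCC44 DMSO list. This rule gave 6828 regions, which is 18% of the 37943 regions with a peak in both H1975 DMSO lists. Because the rule used the DMSO lists of both lines, the difference between lines under DMSO is not a result. Presence in the ACBI1 lists, the genomic position and the sequence did not choose the regions, although the ACBI1 peaks took part in the merging. Merging the 4 DMSO lists alone gave 6859 regions. Another 29080 regions had a peak in all 4 DMSO lists and are called shared. In the opposite direction, 13148 regions were HCC44-specific.

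Open chromatin away from gene starts is largely made of enhancers, and these differ between cell types more than promoters do. Many enhancers depend on the SWI/SNF (BAF) complexes, which use ATP to slide or eject nucleosomes and keep sites open for transcription factors. ACBI1 is a bivalent degrader that brings SMARCA2 and SMARCA4, the ATPase subunits of these complexes, and the subunit PBRM1 to a ubiquitin ligase. Promoters rich in CpG are usually open in many cell types, and their nucleosome-depleted state depends less on these complexes.

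The sequences printed here are examples from gene starts, where some H1975-specific regions stayed listed with ACBI1 and others did not. Each line below gives the 250 bases before the start of 1 gene (RefSeq, GRCh38.p14), 5′ to 3′ on the gene's strand, wholly inside an H1975-specific region. Capitals mark matches, on either strand, to the searched motifs. The first 3 genes lie in or beside the zinc finger clusters of chromosome 19 and their regions kept a peak in both H1975 ACBI1 lists. The last 2 had the highest-ranked −log10 q of the 9 such promoters whose region was listed in neither ACBI1 list.
ZSCAN5A, chr19:56368279-56368528, minus strand: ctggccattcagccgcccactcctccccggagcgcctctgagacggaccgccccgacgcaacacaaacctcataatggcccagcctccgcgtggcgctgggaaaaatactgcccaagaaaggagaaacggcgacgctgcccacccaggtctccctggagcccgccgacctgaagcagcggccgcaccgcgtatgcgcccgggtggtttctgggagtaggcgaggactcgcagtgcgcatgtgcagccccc
ZNF582, chr19:56393535-56393784, minus strand: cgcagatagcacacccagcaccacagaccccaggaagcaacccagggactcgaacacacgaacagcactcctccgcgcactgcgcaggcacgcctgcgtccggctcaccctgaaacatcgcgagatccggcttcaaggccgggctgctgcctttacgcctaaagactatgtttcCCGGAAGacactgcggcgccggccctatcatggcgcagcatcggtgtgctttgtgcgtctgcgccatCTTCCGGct
TRAPPC2B, chr19:57363301-57363550, plus strand: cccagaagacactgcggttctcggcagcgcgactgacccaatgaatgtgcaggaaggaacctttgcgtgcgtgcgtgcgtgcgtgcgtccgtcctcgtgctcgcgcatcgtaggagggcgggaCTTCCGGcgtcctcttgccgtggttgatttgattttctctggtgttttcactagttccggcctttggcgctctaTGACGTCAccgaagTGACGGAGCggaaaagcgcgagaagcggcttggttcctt
SERPINA5, chr14:94581176-94581425, plus strand: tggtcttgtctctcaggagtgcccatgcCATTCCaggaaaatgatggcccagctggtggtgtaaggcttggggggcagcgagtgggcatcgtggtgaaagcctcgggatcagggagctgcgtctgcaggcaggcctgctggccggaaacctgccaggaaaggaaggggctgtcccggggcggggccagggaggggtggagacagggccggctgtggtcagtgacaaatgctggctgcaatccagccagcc
PTAFR, chr1:28193857-28194106, minus strand: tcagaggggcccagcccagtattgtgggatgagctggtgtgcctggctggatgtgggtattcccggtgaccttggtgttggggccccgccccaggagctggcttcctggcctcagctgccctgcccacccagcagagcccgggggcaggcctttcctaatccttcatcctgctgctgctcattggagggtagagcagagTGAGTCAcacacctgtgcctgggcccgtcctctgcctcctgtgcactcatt

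The CpG content of promoters is given with the motifs further on, since the 5 shown are examples. ZSCAN5A had 24 CpG in its 250 bases, ZNF582 23 and TRAPPC2B 28, against 8 for SERPINA5 (a serine protease inhibitor) and 4 for PTAFR (the receptor of platelet-activating factor). ZNF582 had 2 matches to the ETS motif CCGGAAG. TRAPPC2B had 1 match each to ETS, CREB (TGACGTCA) and NRF2 (TGACNNNGC). PTAFR had an AP-1 match (TGANTCA) and SERPINA5 a TEAD match (GGAATG). Other highly ranked promoters, not printed, blur this contrast. The kept promoters of ZNF470 and RPSA2 had 15 CpG each, and the lost promoter of LRRC4 had 38 CpG and no match. Among kept promoters, LOC122539214 had an AP-1 match and RPSA2 a TEAD match. These matches are descriptions of the letters and not evidence of binding. In H1975 the −log10 q at ZNF582 was 218 and 228 under DMSO, then 320 and 256 under ACBI1. At PTAFR it was 38.2 and 30.7 under DMSO, with no listed peak in either ACBI1 sample.

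Before treatment the H1975-specific regions were narrow and of below-average strength. Their merged width had a median of 390 bp, against 1021 bp for shared regions, and the median −log10 q was 31.5 against 50.6. The median fold enrichment, which is the authors' own value per peak, was 6.86 against 7.06. Just outside the rule lay 2035 regions that also had a peak in 1 HCC44 DMSO list (median 462 bp and −log10 q 33.0) and 3601 regions with a peak in 1 H1975 DMSO list and none in HCC44 (242 bp and 19.5). A region built from more lists is widened by the merging, so widths were also taken from the widest H1975 DMSO peak alone. The medians were then 367 bp for H1975-specific and 749.5 bp for shared regions.

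Most H1975-specific regions were no longer listed after 96 h of ACBI1. In H1975, 4452 of 6828 (65.2%) had a peak in neither ACBI1 list and are called lost, and 1661 (24.3%) had a peak in both and are called kept. The other 715 (10.5%) had a peak in 1 of the 2. Over all 37943 regions of the H1975 DMSO lists, 36.8% were lost and 52.3% were kept. Of the shared regions 28.3% were lost and 60.8% kept, in the same libraries. The first ACBI1 replicate listed 33.9% of the H1975-specific regions and the second 25.2%, a mean of 29.6% ± 6.10 (SD, n = 2). For shared regions the values were 71.2% and 61.3%. The H1975-specific regions differed from the shared ones by −37.3 points in one library and −36.03 points in the other, a mean difference of −36.7 points ± 0.930 (SD, n = 2). That mean was larger than the spread of the difference between the libraries. HCC44 gave a similar difference in the opposite set: 71.4% of HCC44-specific regions were lost in HCC44, against 37.7% of shared regions, a gap of 33.8 points beside 36.9 points in H1975.

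**Figure D1:**
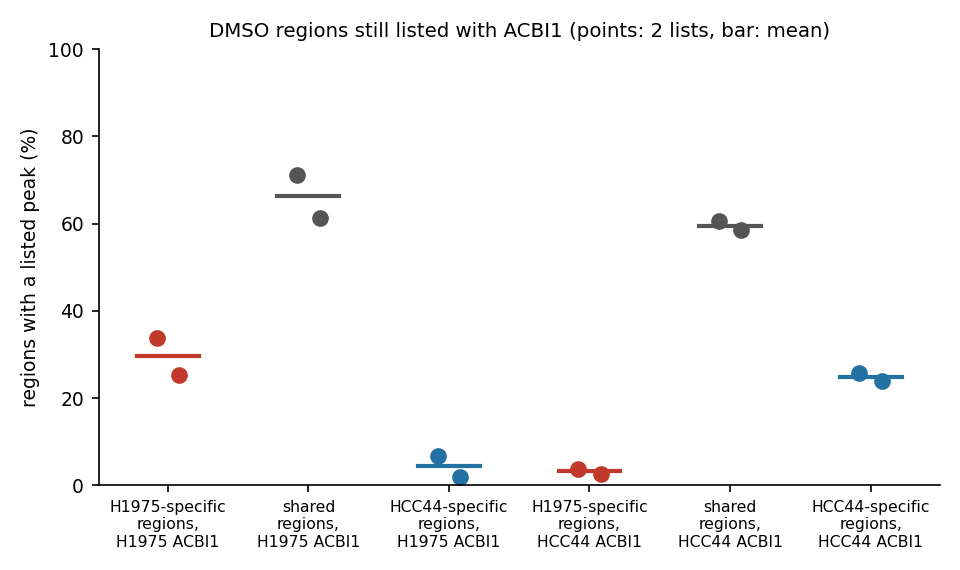
Percent of H1975-specific, shared and HCC44-specific DMSO regions with a listed peak in each ACBI1 sample (points, 2 replicates; bar, mean), for the ACBI1 samples of H1975 on the left and HCC44 on the right. H1975-specific regions were listed at 33.9% and 25.2% in H1975 ACBI1 and at 3.73% and 2.71% in HCC44 ACBI1.

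Part of this difference went with the strength and width of the peaks. Regions of the H1975 DMSO lists were split into 5 bins of about equal size by the rank of their −log10 q in the H1975 DMSO lists. In the lowest bin 71.5% of H1975-specific and 57.8% of shared regions were lost, and in the highest bin 7.76% and 1.28%. H1975-specific regions were lost more often in each of the 5 bins, with the widest gap in the middle one (68.0% against 35.1%). In 5 bins of the widest H1975 DMSO peak, the losses were 83.3% against 72.0% for the narrowest peaks and 15.1% against 3.73% for the widest. Weighting by the H1975-specific regions, the difference of 36.9 points became 21.98 points within bins of −log10 q rank, 12.5 points within bins of the widest H1975 DMSO peak, and 8.43 points within both. Within bins of the merged width, a measure that the merging itself affects, it was 5.55 points and its direction was not the same in every bin. In the narrowest bin 83.4% of H1975-specific and 72.8% of shared regions were lost, but in the next bin 44.9% and 51.1%, and in the widest 6.67% and 9.03%. Away from gene boundaries, the share lost was lower for H1975-specific than for shared regions in the 4 wider bins, for example 48.9% against 53.4% and 11.1% against 21.4% in the widest. What remained cannot be assigned to the cell line, since a peak missing from a list is not a measurement of closed chromatin and read depth is unknown.

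**Figure D2:**
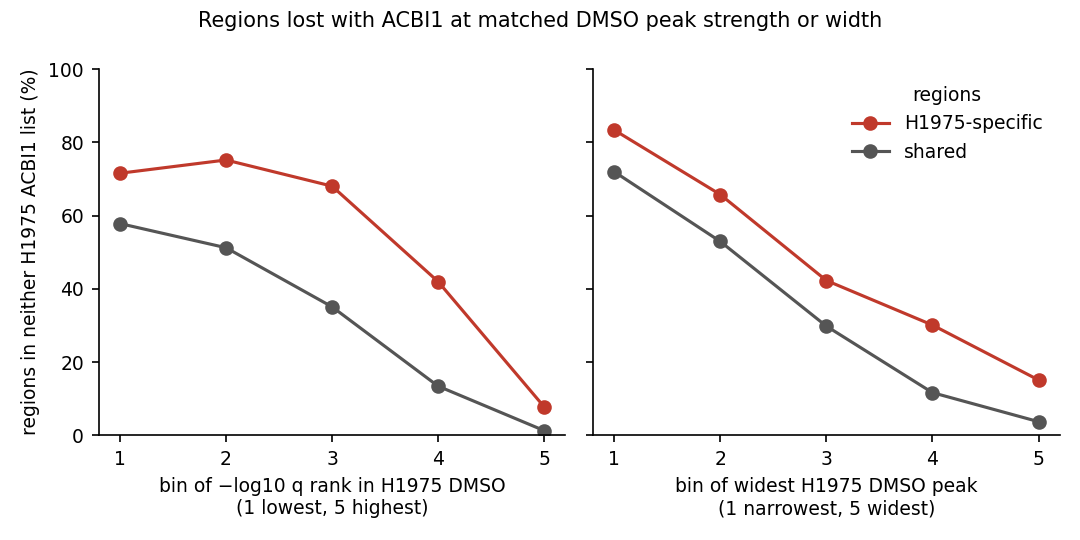
Percent of regions listed in neither H1975 ACBI1 sample (vertical axis) by bin of −log10 q rank in the H1975 DMSO lists (left; 5 bins from lowest to highest) and by bin of the widest H1975 DMSO peak (right), for H1975-specific (red) and shared (grey) regions. The H1975-specific line lies above the shared line at each of the 5 points in both panels, from 83.3% to 15.1% on the right.

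The kept and lost H1975-specific regions differed in width more than in fold enrichment. Kept regions had a median merged width of 676 bp and a −log10 q of 42.9 under DMSO, against 322 bp and 29.5 for lost regions. The median fold enrichment was 6.87 and 6.95. In the widest H1975 DMSO peak alone, kept regions had a median of 585 bp and lost regions 317 bp.

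Few of these regions were listed in HCC44 after ACBI1. The HCC44 ACBI1 lists held 255 (3.73%) and 185 (2.71%) of the 6828 regions, a mean of 3.22% ± 0.725 (SD, n = 2). The H1975 ACBI1 lists held 26.3 points more, a direction that the choice of regions by the DMSO lists of the same lines largely fixes. An exact permutation test over the 4 ACBI1 samples, two-sided, gave p = 0.333, which is the smallest that 6 arrangements allow, so no such test can pass 0.05 here. For shared regions the same contrast was 6.66 points. In all, 292 regions (4.28%) had a peak in at least 1 HCC44 ACBI1 list. They were 231 of the 1661 kept regions (13.9%), 46 of the 715 in between and 15 of the 4452 lost regions (0.337%).

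The fate of a region went with its place relative to genes. A region was counted as lying at a gene boundary when it came within 1 kb of the start or the end of a protein-coding gene. H1975-specific regions overlapped a boundary in 618 cases (9.05%), against 35.02% of shared, 7.77% of HCC44-specific and 19.0% of all merged regions. With the gene starts of the RefSeq promoter table alone, the shares were 6.94% and 30.4% for H1975-specific and shared regions. That table holds 15812 of the 19974 protein-coding genes and none of chromosome 8, so these shares leave out genes as well as gene ends. The midpoint lay inside a gene for 52.8% of H1975-specific regions, and 864 (12.7%) lay over 100 kb from any protein-coding gene. At a boundary, 452 of 618 regions (73.1%) were kept and 111 (18.0%) lost. Away from boundaries, 1209 of 6210 (19.5%) were kept and 69.9% lost. Shared regions were kept at 94.3% of boundaries and at 42.7% elsewhere, where 41.9% were lost. Away from boundaries the difference in loss between H1975-specific and shared regions was thus 28.0 points.

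Among kept and lost H1975-specific regions, leaving out those listed in 1 ACBI1 list, 1613 neighbouring pairs lay within 50 kb of each other and 1121 (69.5%) of them had the same fate. The genome-wide shares of kept and lost among these regions alone would give 60.4%. That figure takes no account of chromosome or gene boundary, with which the share kept varied. For shared regions the values were 63.8% and 56.7%. The median distance to the nearest shared region was 20.5 kb, with 22.8 kb for kept and 19.9 kb for lost regions.

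Chromosome 19 stood apart from the other 22 chromosomes in both the number and the fate of these regions. It held 676 H1975-specific regions among 2110 regions of the H1975 DMSO lists (32.0%), and the other chromosomes had between 11.4% and 22.7%. Of the 676, 417 (61.7%) were kept and 29.1% lost, whereas 11.9% to 26.1% were kept on each of the other chromosomes. Chromosome 19 thus held 9.90% of the H1975-specific regions but 25.1% of the kept ones and 29.4% of those at gene boundaries. It held 4.64% of shared and 2.21% of HCC44-specific regions. Shared regions on chromosome 19 were kept at 80.7%, also above the 59.8% elsewhere. Without chromosome 19, 20.2% of H1975-specific regions were kept, 69.2% lost, and the excess in loss over shared regions was 40.1 points.

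**Figure D3:**
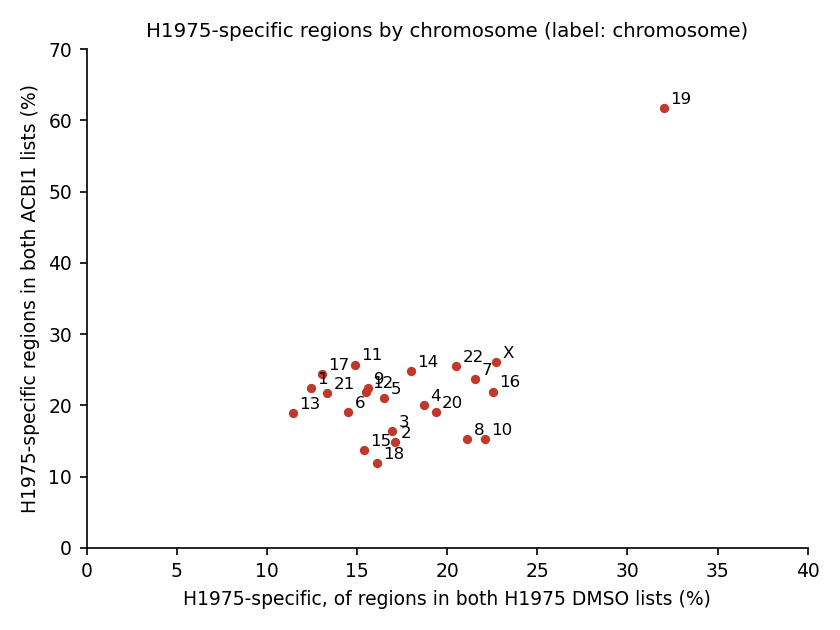
Each point is 1 chromosome, labelled; the horizontal axis gives the percent of regions in both H1975 DMSO lists that were H1975-specific, and the vertical axis the percent of those kept in both H1975 ACBI1 lists. Chromosome 19 lies at 32.0% and 61.7%, and the other 22 lie between 11.4% and 22.7% and between 11.9% and 26.1%.

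On chromosome 19, 299 of the 676 H1975-specific regions lay in long uninterrupted stretches of 10 or more. A stretch was a run of consecutive H1975-specific regions among the 53968 regions found in both DMSO lists of either line. Over the genome, 4142 of the 6828 regions (60.7%) stood alone, and 25 stretches held 10 or more regions, 10 of them on chromosome 19. The longest ran over 4.002 Mb (chr19:19821007-23823065) with 105 H1975-specific regions, of which 47 were kept and 43 lost. It held 35 protein-coding genes, 33 of them zinc finger genes, from ZNF506 to ZNF681 and RPSA2. It held 112 and 110 peaks in the H1975 DMSO lists and 70 and 49 in the H1975 ACBI1 lists. In HCC44 the DMSO lists held 0 each there, and the ACBI1 lists 1 and 0.

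The next 4 stretches were also on chromosome 19 and were mostly kept. The second (chr19:52335868-53358798) had 55 regions, 41 kept and 11 lost, and 28 genes with 22 zinc finger genes such as ZNF28, ZNF83 and ZNF160. In H1975 it held 58 and 57 peaks under DMSO, then 46 and 45 under ACBI1. The third (chr19:53463173-54008580) had 23 regions, 18 kept and 3 lost, around ZNF331, the inflammasome gene NLRP12 and the calcium channel subunits CACNG6, CACNG7 and CACNG8. The fourth (chr19:56367848-57254101) had 23 regions, 18 kept and 5 lost, and included the imprinted gene PEG3. The fifth (chr19:37251397-37855974) had 22 regions, 16 kept and 4 lost. Each of these 4 stretches held 0 peaks in all 4 HCC44 lists. Whether the DNA of these stretches is present at equal copy number in both lines was not tested, and no value here separates an unlisted peak from closed or missing DNA.

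Outside chromosome 19 most regions in long stretches were lost, with a somewhat higher share kept than over all H1975-specific regions there. Of all those regions, in stretches or not, 69.2% were lost and 20.2% kept. In the 15 stretches of 10 or more regions there, 57 of 202 regions (28.2%) were kept and 129 (63.9%) lost, and in 13 of the 15 more were lost than kept. In the 10 on chromosome 19, 200 of 299 (66.9%) were kept and 76 (25.4%) lost, and in 1 of the 10 more were lost than kept. The sixth stretch (chr16:9139153-10533941), around GRIN2A, ATF7IP2 and EMP2, had 21 regions, 5 kept and 15 lost, with 26 and 22 peaks under DMSO against 8 and 5 under ACBI1 in H1975. The seventh (chr14:97077223-98887402) held no protein-coding gene and had 19 regions, 3 kept and 15 lost, with 25 and 19 peaks against 4 and 3. A stretch of chromosome 7 (chr7:67937751-71869147), which holds AUTS2, a gene of neuronal development, had 18 regions, 1 kept and 14 lost. Another stretch of chromosome 7 (chr7:56358846-64542151) went the other way, with 13 of 18 regions kept, and 8 of its 24 protein-coding genes were zinc finger genes such as ZNF479 and ZNF716.

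The zinc finger genes themselves showed the pattern at their boundaries. KRAB zinc finger genes make up large tandem clusters on chromosome 19, and many of their proteins bind transposable elements and recruit repressors. The family was singled out after its values were seen, by symbols of a ZNF, ZFP, ZSCAN, ZKSCAN, ZIK or ZIM prefix and a number, and so it was not tested. Of 265 such genes on chromosome 19, 225 and 224 had a boundary peak in the H1975 DMSO lists, and 224 and 223 in the ACBI1 lists. In HCC44 the numbers were 98 and 95, then 103 and 98. Over all 19974 protein-coding genes the H1975 DMSO lists gave 12081 and 12050, and those of HCC44 12392 and 12383. The DMSO values of both lines chose the regions, so the difference between lines is a description. Within each line DMSO and ACBI1 counts of the 265 genes were close, and those over all protein-coding genes were only slightly lower with ACBI1. An H1975-specific region lay at the boundary of 131 of the 265 (49.4%), against 67 of the 1186 other genes of chromosome 19 (5.65%) and 28 of the 304 zinc finger genes elsewhere (9.21%). The region was kept at 126 of the 131 genes (96.2%) and lost at 4. Over all 19974 protein-coding genes, 673 (3.37%) had such a region, and it was kept at 497 (73.8%). Such a region was kept at 80.6% of the 67 other genes of chromosome 19 and at 78.6% of the 28 zinc finger genes elsewhere. At the 447 other genes of other chromosomes it was kept at 66.0%. Among genes with an H1975-specific boundary region, the share kept was thus highest at zinc finger genes of chromosome 19. Shared regions at a gene boundary, counted per region and not per gene, were kept in 94.3% of cases. A high share kept was thus not limited to zinc finger genes.

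**Figure D4:**
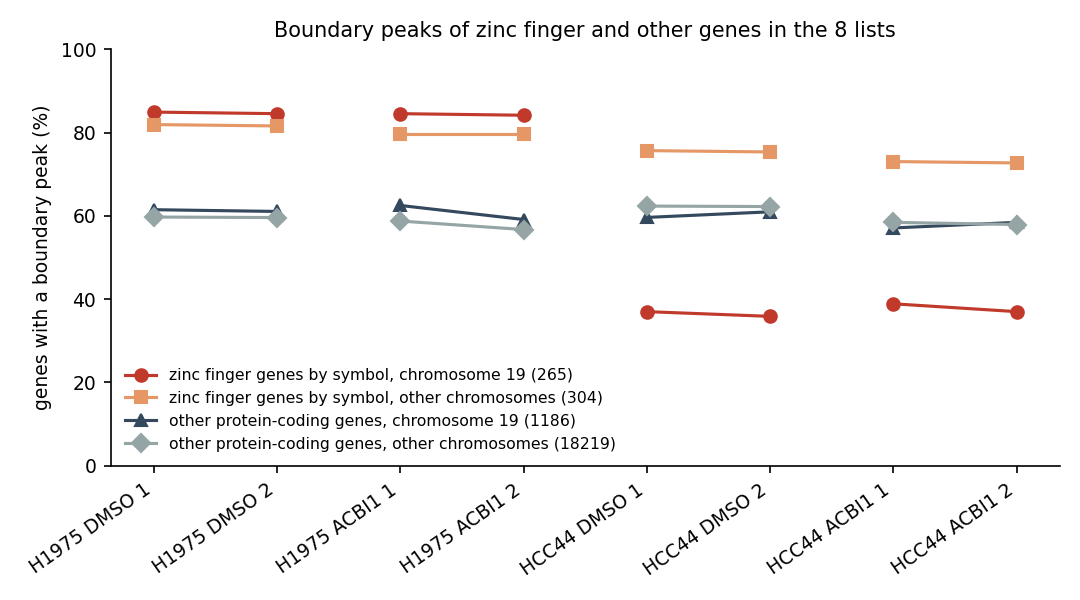
Percent of genes with a peak within 1 kb of either end (vertical axis) in each of the 8 lists, for zinc finger genes by symbol and other protein-coding genes, on chromosome 19 and elsewhere; lines join the 2 replicates of a group. The 265 zinc finger genes of chromosome 19 have a boundary peak in 225 and 224 cases in H1975 DMSO and in 98 and 95 in HCC44 DMSO, while the other 3 groups lie closer together between the lines.

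The 10 genes with the highest-ranked H1975-specific region at a boundary were all zinc finger genes of chromosome 19 or shared a start with one, and all 10 were kept. Most strong H1975-specific regions were kept: 87.0% of the 361 in the highest bin of −log10 q rank. Of the 224 in that bin away from boundaries, 79.0% were kept. ZNF708 (chr19:21328842-21329570) had a −log10 q of 310 and 326 in the DMSO lists, 315 and 193 in the ACBI1 lists, and a fold enrichment of 12.7 and 14.3, then 11.5 and 13.2. ZNF429 (chr19:21505435-21506346) had 294 and 277, then 302 and 187. ZNF682, ZNF329, ZNF675, ZNF135, ZSCAN5A, ZNF470, its divergent transcript ZNF470-DT at the same region, and ZNF549 followed. A region at the boundary of ZNF675 also had a peak in an HCC44 ACBI1 list. Values of −log10 q are not on one scale across libraries, so the 4 values of a gene show presence and rank and not an amount of change.

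Kept boundary regions also lay at genes outside the zinc finger family, here named after their values were seen. They included MAN2B1, which encodes lysosomal alpha-mannosidase, GALC, the lysosomal galactosylceramidase, HS3ST3B1, a heparan sulfate sulfotransferase, TNNI3, the cardiac troponin I, and WNT3A, a WNT ligand. At GALC (chr14:87992441-87993516) the −log10 q was 114 and 121 under DMSO, then 133 and 92.9 under ACBI1. At WNT3A (chr1:228059291-228060687) it was 114 and 105, then 138 and 89.7. The WNT3A and MAN2B1 regions also had a peak in an HCC44 ACBI1 list. These regions were not at a gene start of the RefSeq promoter table, whereas those at GALC, HS3ST3B1 and TNNI3 were.

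Motifs before gene starts were compared over all promoters of the same length. The table gave 15812 of 19974 protein-coding genes (79.2%), so shares describe these genes only, and the table holds no gene of chromosome 8. Of promoters wholly inside an H1975-specific region, 200 were kept, 10 were listed in 1 ACBI1 list and 9 were lost. The ETS motif stood in 16.5% of the kept promoters, 11.8% of all promoters and 18.8% of shared kept promoters. It stood in 27.7% of the 101 kept promoters of zinc finger genes, close to the 29.7% of all 478 zinc finger promoters, and in 5.05% of the 99 other kept promoters. The AP-1 motif stood in 3% of kept promoters and 5.05% of all promoters. It stood in 4 of the 9 lost promoters (ENTPD2, DRICH1, MAB21L4 and PTAFR, named after their values were seen) and in 21.9% of 64 shared lost promoters. The median number of CpG per promoter was 19 in kept and 5 in lost H1975-specific promoters, beside 23 and 8 in shared ones. Of the 9 lost promoters, 3 (CRACDL, ENTPD2 and LRRC4) were rich in CpG, with 39, 36 and 38. With 9 lost promoters, no statement on any motif can be firm.

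The genes that gathered the most H1975-specific regions were mostly long. A region was assigned to the gene holding its midpoint, or else to the nearest gene within 100 kb. In this way 4082 genes received at least 1 region and 73 received 5 or more. The 20 genes with the most held 170 regions, of which 30 were kept and 122 (71.8%) lost, near the 69.9% lost over all H1975-specific regions away from boundaries, and at 18 of the 20 more were lost than kept. Their median length was 313 kb, against 24.2 kb over all protein-coding genes. All 20 had fewer peaks in both H1975 ACBI1 lists than in both DMSO lists, counted over the gene and 50 kb on each side. That was so for 49.5% of the 17527 genes with a peak around them, and for 94.3% of the 801 genes with at least 7 H1975 regions, so the count is near the level of genes with that many regions.

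Around GRIN2A, which encodes an NMDA receptor subunit, the H1975 DMSO lists held 13 and 12 peaks and the ACBI1 lists 2 and 1. All 4 HCC44 lists held 0. All 11 H1975 DMSO regions assigned to GRIN2A were H1975-specific, with 1 kept and 9 lost. FGF13, an intracellular FGF family member that binds sodium channels, had 12 and 10 peaks in the H1975 DMSO lists, 2 and 3 in the ACBI1 lists, and 0 in each HCC44 list. ATP10A, a phospholipid flippase, had 7 and 7, then 2 and 2, again with 0 in HCC44. Here and below, the first pair of counts is from the DMSO lists and the second from the ACBI1 lists. At these 3 genes the H1975 ACBI1 and DMSO counts did not overlap. The empty HCC44 DMSO lists follow from how the genes were picked.

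Other long genes carried peaks in HCC44 as well. GPC6, a heparan sulfate proteoglycan, had 18 and 17 peaks, then 4 and 4, in H1975, beside 12 and 9, then 0 and 1, in HCC44. STX8, a SNARE protein of endosomal vesicle fusion, had 18 and 17, then 8 and 3. The axon guidance genes PLXNA4 and SEMA5A had 9 and 10, then 2 and 1, and 12 and 13, then 5 and 4. TENM2, a teneurin adhesion protein, had 11 and 12, then 4 and 5. SORCS2, COBL, MPP7, DYSF (dysferlin, of muscle membrane repair), PLPP4 and KIAA1671 likewise held fewer peaks in both ACBI1 lists.

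The exceptions among the 20 were ZNF91 and ZNF429, where as many regions were kept as lost. ZNF91, which encodes a repressor of SVA retrotransposons, had 12 H1975-specific regions, 5 kept and 5 lost, and 12 and 11 peaks under DMSO against 9 and 6 under ACBI1. ZNF429 had 11 regions, 5 kept and 5 lost, and 10 and 10 peaks against 7 and 6. RPSA2, at the end of the same stretch, had 7 regions, 1 kept and 4 lost.

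**Figure D5:**
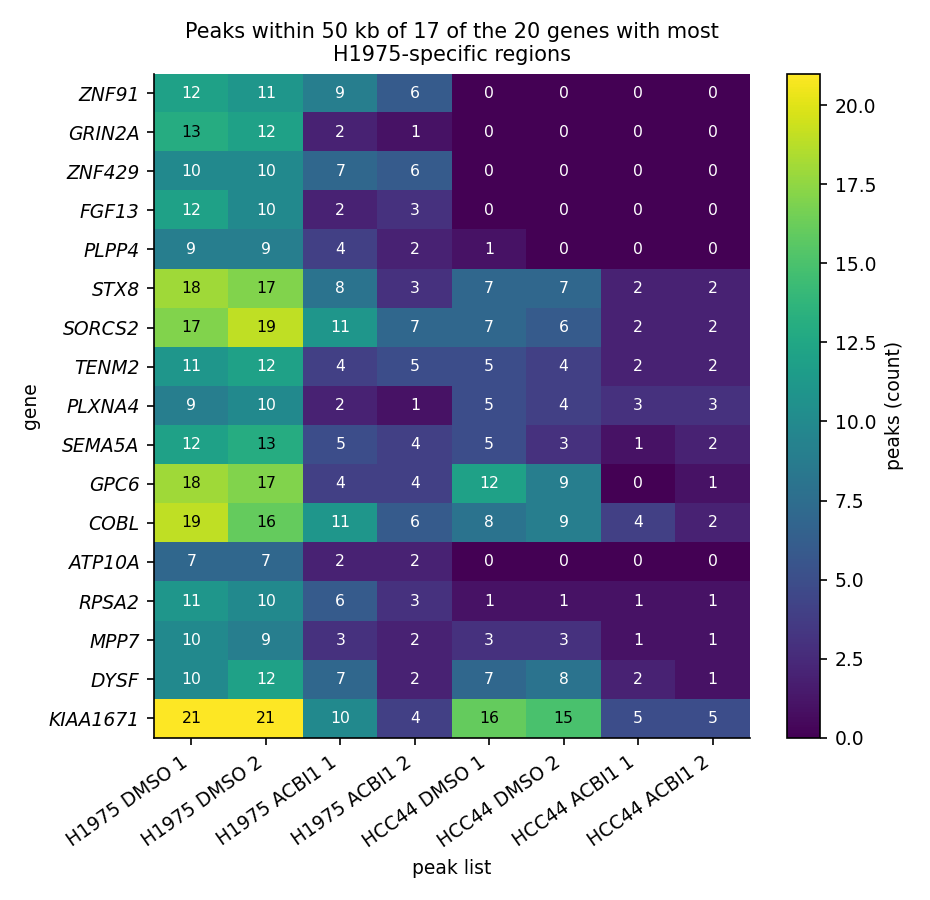
Number of peaks over 17 of the 20 genes with most H1975-specific regions, with 50 kb on each side (vertical axis), in the 8 lists (horizontal axis); the number in each cell is the count. GRIN2A has 13 and 12 peaks in H1975 DMSO and 2 and 1 in H1975 ACBI1, and ZNF91 has 12 and 11, then 9 and 6, with 0 for both genes in the HCC44 lists.

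The 5 lost regions with the highest-ranked −log10 q under DMSO lay away from gene boundaries. They were in KDM2A (chr11:67248431-67249019; −log10 q 115 and 145), 13931 bp from ZNF724, 42529 bp from ACTR3, in the nuclear receptor coactivator gene NCOA2, and at chr5:27308231-27308493, where no protein-coding gene lay within 100 kb. The last had a fold enrichment of 13.5 and 14.5, and the one in NCOA2 13.0 and 13.5. The lost regions were thus not only weak peaks, since the percentiles of these 5 within the H1975 DMSO lists ran from 89.2 to 94.5.

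Gene lists chosen for lung cancer and SWI/SNF biology held between 2 and 14 H1975-specific regions each, too few to compare the lists. Their counts stand beside 24.3% kept and 65.2% lost over all H1975-specific regions. Over all protein-coding genes, 37.4% had an H1975-specific region within 50 kb. Of 14 lung lineage factors, 6 had one, with 14 such regions among 59 H1975 regions, 4 kept and 7 lost. NKX2-1, the lineage factor of distal lung epithelium, had 6 and 7 peaks around it in the H1975 DMSO lists and 6 and 5 in the ACBI1 lists, beside 1 and 2, then 2 and 1 in HCC44. Of its 3 H1975-specific regions, 1 (chr14:36505453-36506434) was kept and 2 lost, the stronger of them 37.1 kb away (−log10 q 81.9 and 60.4). The kept region also had a peak in the first HCC44 ACBI1 list (−log10 q 12.2). SOX2, a factor of basal and stem-like airway cells, had 2 and 3 peaks in H1975 under either treatment, and 0 in all 4 HCC44 lists. The 2358 bp region at its boundary was kept and 1 region 25.2 kb away was lost. GRHL2, an epithelial factor, had 3 regions, 1 kept and 1 lost, and TP63, a basal cell factor, 3 regions, 0 kept and 2 lost.

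Of 14 mesenchymal genes 5 had an H1975-specific region, 11 in all, with 0 kept and 10 lost. Over all H1975-specific regions, 19.5% were kept away from gene boundaries and 73.1% at boundaries. Most of the 11 lay away from boundaries, but 1 lay at the boundary of SPARC and 1 at that of SNAI1. SPARC, a secreted matrix protein, had 5 of the 11, with 4 lost and 1 (at its boundary) listed in 1 ACBI1 sample. It had 8 and 6, then 2 and 2 peaks around it. SNAI1, a repressor of epithelial genes, had 2, both lost, among them the 1429 bp region at its boundary (−log10 q 50.5 and 66.9). It had 11 and 12, then 7 and 4 peaks around it. PRRX1, a mesenchymal homeobox factor, also had 2, both lost. Of 15 epithelial junction genes, 9 had an H1975-specific region, 10 in all, with 2 kept (near EPCAM and CLDN7) and 7 lost. These regions made up 9.80% of the 102 H1975 regions near the epithelial genes and 20.4% of the 54 near the mesenchymal genes, against 18.0% over the genome.

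In the interferon and STING list, which the study's title points to, 6 of 12 genes had an H1975-specific region, 2 kept and 4 lost. The kept regions lay 28.5 kb from CGAS, the cytosolic DNA sensor, at the start of DDX43 and OOEP, and 41.4 kb from TBK1, the kinase downstream of STING. The region near TBK1 (chr12:64543558-64544025) had a −log10 q of 72.6 and 77.4 under DMSO, then 129 and 104 under ACBI1. The interferon-induced genes IFIT2 and IFIT3 shared 2 lost regions, 1 lost region lay near CXCL10 and 1 near IL1B, an inflammatory cytokine. Around IFIT3 there were 6 and 6, then 1 and 0 peaks in H1975, and 6 and 5, then 2 and 1 in HCC44.

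Few H1975-specific regions lay near the other lists. Of 26 H1975 regions near EGFR, ERBB2, ERBB3 and ERBB4, 2 were H1975-specific: 1 inside EGFR (chr7:55052193-55052423), which was lost, and 1 inside ERBB2, listed in 1 ACBI1 sample. Of 9 SWI/SNF genes, 3 had 1 region each. Those near SMARCA4 and in PBRM1, both targets of ACBI1, were lost, and that in SMARCC1 was listed in 1 ACBI1 sample. Of 71 H1975 regions near 10 AP-1 genes, 4 were H1975-specific: those near JUNB and JUND were kept, and those near FOSL1 and BATF were lost.

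The number of peaks per list was lower with ACBI1 in both lines, with 43525 and 41027 peaks in H1975 DMSO, 27682 and 22133 in H1975 ACBI1, 50347 and 49945 in HCC44 DMSO and 26313 and 24862 in HCC44 ACBI1. The losses described here stand within that decline. Of 10 lung epithelial markers, 9 had a boundary peak in each H1975 list, and 9 and 10, then 7 and 8 had one in the HCC44 DMSO and ACBI1 lists, while SFTPB had none in H1975. Of 9 markers of other cell types, 3 had one in each H1975 DMSO list, 2 and 1 in the ACBI1 lists, 3 and 4 in HCC44 DMSO and 1 and 1 in HCC44 ACBI1. Those with one in both H1975 DMSO lists were CD3E, PDGFRB and RBFOX3, and CD3D, PTPRC, PECAM1, CDH5, DCN and MLANA had none in any H1975 list.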

How the data were processed

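ATAC-seq of 8 samples was used through the deposited peak lists, 1 for each sample, with no pooling of replicates. BWA and the build hg38 are named in the submitters' processing notes, and the peak caller is not given in the sources used here. Each deposited list has 9 columns, no header and the broadPeak layout. The authors' fold enrichment per peak is a ratio, the authors' p and q are deposited as −log10 values, and the deposited score column was not used. The lowest −log10 q of a list lay between 10.04 and 10.21, so weaker peaks are not in the lists. The read depth is unknown, and counting intervals were not possible. Per the labels' protocols, 11 PCR cycles were used.

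From the lists, peaks on chromosomes 1 to 22 and X were merged and each region was scored as listed or not. At most 0.0831% of peaks lay on other sequences. Gene names and positions, and promoter sequences, came from RefSeq tables of GRCh38.p14. The gene table gives no strand, so both gene ends were used as boundaries. In the promoter table, 2639 windows that overlapped on opposite strands were reverse complements in 2639 cases. Values per list are given with their SD over 2 replicates, and 1 contrast was tested by an exact permutation test. The members and lists were chosen with earlier results of these data known. Named genes were the 20 with most H1975-specific regions, the 10 with the highest-ranked region at a boundary, and the members of the gene lists. Of the 20, 3 are not reported here by name. Named regions were the highest ranked by −log10 q within a fate, and named stretches those with the most regions. Alternatives were stricter thresholds, joining, equal list lengths, strata of strength and width, other boundary windows, and leaving out each replicate. Other alternatives were added after seeing the data: leaving out chromosome 19, building regions from the H1975 DMSO lists, and strata of the widest H1975 DMSO peak. Python 3.11.15 with numpy 2.4.6, pandas 2.3.3, scipy 1.17.1 and matplotlib 3.10.9 was used, and the functions were tested on simulated data.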

Additional observations from a re-analysis of the deposited data

Results flagged for a closer look

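The number of peaks over JUNB, an AP-1 subunit, and 50 kb on each side moved in opposite directions in the 2 lines. In H1975 it went from 15 and 14 with DMSO to 16 and 16 with ACBI1, a mean change of 1.5 peaks. In HCC44 it went from 14 and 14 to 13 and 12, a mean change of −1.5 peaks. The groups do not overlap in either line, and the difference between the lines was not tested. Over the 18150 protein-coding genes with a peak around them in any list, 73 (0.402%) showed this pattern and 62 (0.342%) the reverse one.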

How the results depend on the processing

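The depth of each library is unknown, a missing peak may reflect depth or background, and with 2 replicates the spread itself is poorly known. Only the difference in loss from shared regions and the contrast between the lines have a direction, and neither reversed in any weighted or overall value. Of 57 values under other settings, 37 stayed within the limits set for them, as did 42 of 48 with 1 replicate left out. The limit was a ratio for the number of regions, the sign for the contrast between the lines, and the SD between replicates for the rest. Part of these counts was fixed in advance. Leaving out a list that a value does not use cannot change that value, and the choice of regions largely fixes the sign between the lines. The overall or weighted difference in loss between H1975-specific and shared regions was positive in 21 of 21 settings. Within single bins of merged width it was not: 44.9% against 51.1% in the second and 6.67% against 9.03% in the widest. With a fold enrichment of at least 5 there were 10783 H1975-specific regions, 37.3% kept, 50.4% lost, a difference from shared regions of 16.1 points and 24.1% at a boundary. The median fold enrichment differs between the lines, so that threshold removes more HCC44 peaks. With 41003 DMSO and 22115 ACBI1 peaks per list there were 8089 H1975-specific regions, 68.8% were lost and 10.6% lay at a boundary. Requiring no HCC44 DMSO peak within 5 kb of a region left 4912 of the 6828. With a −log10 q of at least 20, 11.5% lay at a boundary. Without chromosome 19, 20.2% were kept, 69.2% lost, 40.1 points more than shared regions, and 7.09% lay at a boundary. The difference from shared regions was 21.98 points within bins of −log10 q rank, 5.55 within bins of merged width, 12.5 within bins of the widest H1975 DMSO peak, 8.43 within both, and 28.0 away from boundaries. The share at a boundary was 21.0% with windows of 5 kb and 17.1% with all genes. It was 6.94% with the starts of the promoter table alone, which lacks some genes. Leaving out 1 replicate gave 6828 to 9333 H1975-specific regions. Of these, 18.8% to 33.9% were kept, 64.9% to 74.8% lost and 7.51% to 9.05% at a boundary. The differences from shared regions were 35.1 to 40.2 points. With the replicate block, the difference between the lines stayed at 26.3 points by construction, with 4 arrangements and a smallest possible p of 0.5 in the exact permutation test. Except for the thresholds and strata, whose construction is given, the cause of each shift was not tested.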
